A study of Homo sapiens with 8 samples.

Results

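The genes described here are 43 human genes whose products modify transfer RNA (tRNA), chosen by gene symbol to cover the anticodon wobble base, the base that follows the anticodon, the methylation of the tRNA body and pseudouridine formation. They were 43 of the 12235 genes listed in at least 1 of 8 ribosome profiling libraries, and all 43 were listed in at least 1 library. The libraries came from wild-type HEK293T cells, an established line of human embryonic kidney origin immortalised with SV40 large T antigen. After a night of growth the cells were moved to sufficient medium (Suff) or to medium deficient in arginine (Arg-), leucine (Leu-) or methionine (Met-), and starvation lasted overnight per the labels. All media were built on the same deficient DMEM with dialysed FBS, and Suff medium differed from the others only in that every missing amino acid had been put back. Each of the 4 media was profiled from cells pretreated with cycloheximide (CHX), which holds elongating ribosomes in place, and from cells without it, so each condition had 1 library and no replicate. No test between conditions was run, and the differences below are differences between libraries.

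Freshly made tRNAs are altered at many bases by dedicated enzymes, and the modifications in the anticodon loop set how well a tRNA reads its codons while those in the body of the molecule stabilise its fold. Wobble uridines are built up by Elongator and then thiolated, wobble adenosines are deaminated to inosine, and wobble guanosines are exchanged for queuosine. Many of these enzymes work only as complexes of a catalytic and a partner subunit, and many take their methyl groups from S-adenosylmethionine, which cells make from methionine.

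Ribosome profiling counts the mRNA fragments that ribosomes protect, and the values are RPKM, the footprints on a coding sequence scaled to the length of that sequence and to the total of footprints on all coding sequences of the library. An RPKM value is thus a share of the library's footprints, and more mRNA and more ribosomes per mRNA cannot be told apart. Coding sequences held 1302523 to 3139745 reads in the libraries without CHX and 538222 to 6434043 with CHX, where the Met- library was the shallowest. The lowest read count listed for any mRNA was 5 without CHX and 64 with CHX, so an unlisted mRNA was treated as below that count and not as 0. Of the markers for HEK293T cells, VIM and NEFM were listed in 8 of 8 libraries, KRT18 and INA in 6, KRT8 in 4 and PAX2 in 2. PTPRC, ALB and HBB, which mark leukocytes, hepatocytes and erythroid cells, were listed in none, and the fibroblast gene COL1A1 was listed in 5 at no more than 20.2 RPKM.

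Without CHX, 42 of the 43 members were listed in each of the 4 libraries, and the exception was URM1 each time. Their median level was 36.6 RPKM in Suff, 35.3 in Arg-, 37.4 in Leu- and 58.7 in Met- medium, against 17.6, 21.4, 23.3 and 28.4 RPKM for all listed genes. TRMT112 had the highest level of all members in each of these libraries, and TYW1 had the lowest. With CHX the members listed were 25 in Suff, 39 in Arg-, 40 in Leu- and 15 in Met- medium. An mRNA with 1 kilobase of coding sequence needed 25 RPKM to be listed in the Suff CHX library and 118.9 RPKM in the Met- CHX library, so the members compared there are those that were high in the Met- library.

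Changes are given as RPKM ratios to Suff with a 95% counting interval, which is exact (Clopper-Pearson) and covers counting error only. Footprint reads without molecular identifiers are not independent molecules. A member was called higher or lower where log2 of the ratio, after 1 RPKM was added to both values, passed 2-fold, among genes listed in both libraries with a mean of at least 10 RPKM. "Rose" and "fell" below mean that this threshold was passed between 2 libraries.

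Of the 3 starvations without CHX, Met- medium had the most members past 2-fold. There 10 of 42 measured members rose and 0 fell, while 20.2% of 7884 genes rose and 5.34% fell. The members that rose were ADAT3, ADAT1, TRMT5, ELP3, PUS3, MOCS3, LCMT2, TRMT10A, QTRT2 and MTO1. The median log2 ratio of the members was 0.59 and that of all genes 0.32, and with the latter subtracted 9 members rose and 1, PUS7, fell, while 10.7% of all genes rose and 10.7% fell. The members' share that rose was near that of all genes before this subtraction and above it afterwards. With a minimum mean of 50 RPKM and no subtraction, 2 of 18 members rose, beside 11.1% of 3448 genes. In Arg- medium ELP3, CDKAL1 and LCMT2 rose and TRMT112 fell, which made 3 and 1 of 40 measured members beside 8.23% and 5.95% of 7448 genes. The median of the members, -0.01, stood beside -0.02 for all genes. In Leu- medium ELP3 alone rose and 0 of 41 members fell, beside 6.85% and 2.06% of 7558 genes, and the medians were 0.13 and 0.14. With 0.14 subtracted, FTSJ1 and TRMT112 passed 2-fold lower in Leu- medium. These 3 comparisons share the Suff library.

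**Figure D1:**
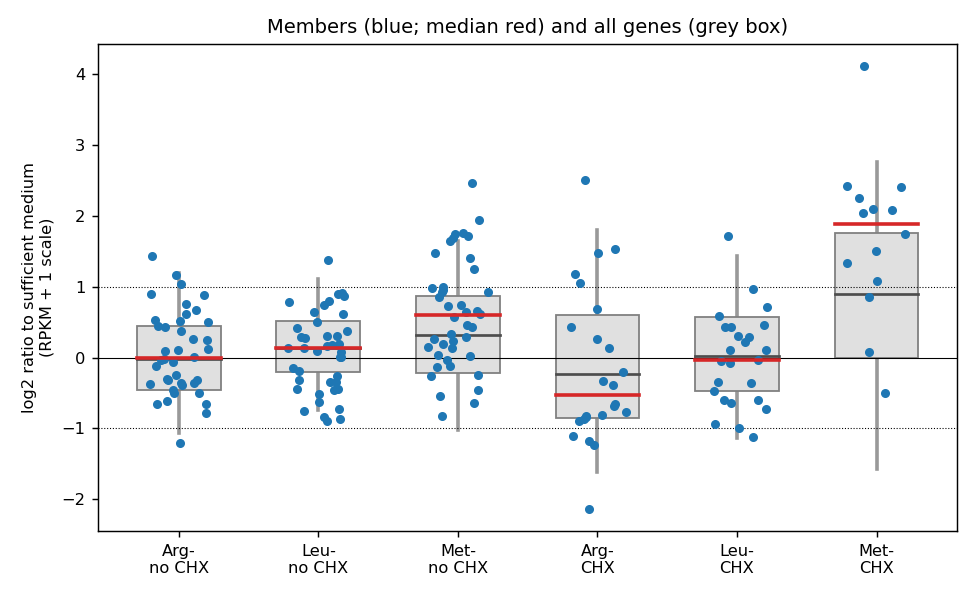
Each blue point is the log2 ratio of 1 measured member to sufficient medium on the RPKM + 1 scale, the red line is the members' median, and the grey box and line give the quartiles, the median and the outer range of all genes measured. The members' median lies at 0.59 in Met- medium without CHX and at 1.88 with CHX, where the median of all genes was also highest, at 0.89.

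**Figure D2:**
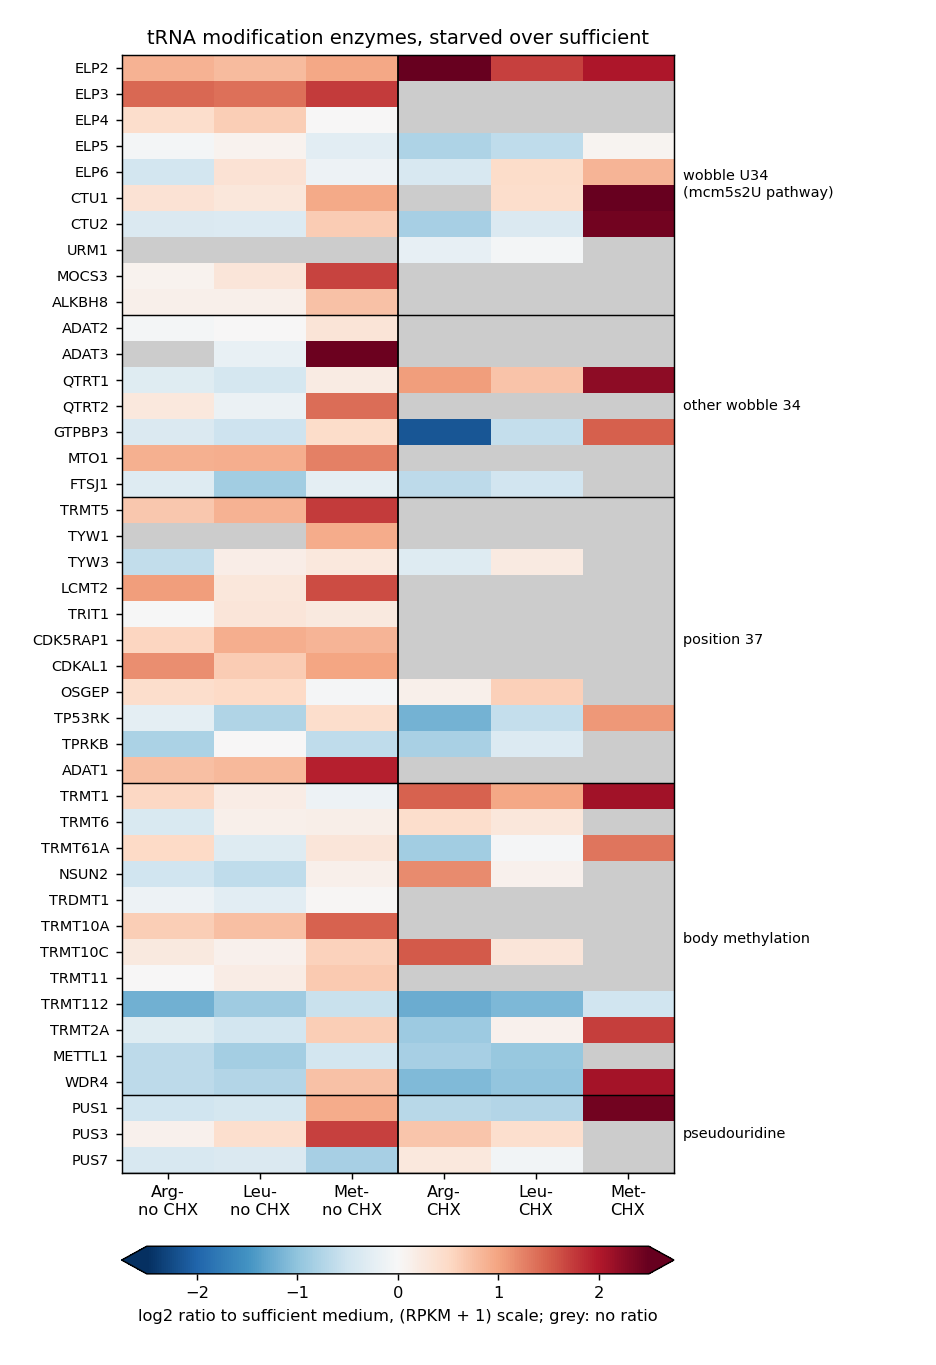
Log2 ratios of all 43 members to sufficient medium, grouped by role in rows, with the 3 starvations without CHX on the left and with CHX on the right. Grey cells have no ratio because the mRNA was not listed in both libraries or had a mean under 10 RPKM; ELP3 is red in all 3 columns without CHX and TRMT112 is blue in all 6.

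Among the 10 genes of the wobble uridine pathway, ELP3 rose in all 3 starvations without CHX. ELP3 is the catalytic subunit of Elongator, and without CHX it was at 11.4 RPKM in Suff, 32.5 in Arg-, 31.3 in Leu- and 40.6 in Met- medium. Those values were 2.84-fold (2.02 to 4.03), 2.74-fold (1.92 to 3.91) and 3.55-fold (2.52 to 5.03) the Suff value, and the intervals of the 3 starved libraries overlapped one another but not that of Suff. With CHX, ELP3 was listed at 23.1 RPKM in Arg- and 17.5 in Leu- medium, and was not listed in Suff, where 15.2 RPKM would have been needed, or in Met- medium. ELP2, a scaffold subunit of the same complex, was at 38.7, 71.9, 67.4 and 76.9 RPKM in Suff, Arg-, Leu- and Met- medium without CHX. None of its 3 ratios, between 1.74 and 1.99, passed the threshold. With CHX the levels of ELP2 were 13.6 RPKM in Suff, 81.5 in Arg-, 46.5 in Leu- and 58.5 in Met- medium, and it rose 6.01-fold (4.82 to 7.58), 3.43-fold (2.74 to 4.34) and 4.31-fold (3.13 to 5.93). Listing ELP2 in Met- medium with CHX needed 48.0 RPKM, so no Met- ratio much below this one could have been seen. The footprints of ELP2 were counted on different transcripts in the CHX libraries and in those without CHX, so its levels are not compared between them.

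ELP4, ELP5 and ELP6 form the ring-shaped accessory module of Elongator, and no measured ratio of theirs passed 2-fold. Without CHX, in the order Suff, Arg-, Leu- and Met-, ELP4 was at 18.4, 25.5, 28.7 and 18.6 RPKM. ELP5 was at 93.4, 90.7, 99.1 and 77.5 RPKM, and its reads could not be recovered as whole numbers, so it has no interval. ELP6 was at 124.5, 90.7, 161 and 114.1 RPKM. The starved libraries lay on both sides of Suff for ELP5 and ELP6, and none lay below it for ELP4. With CHX, ELP4 was at 39.3 RPKM in Arg- and 27.1 in Leu- medium and was not listed in the other libraries, which makes it at least 2.52-fold higher in Arg- medium than the level needed for listing in Suff. ELP5 was at 171, 99.9, 109 and 179.8 RPKM and ELP6 at 109.6, 83.3, 151 and 198 RPKM with CHX.

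The sulfur of the thiolated wobble uridine is activated by MOCS3, carried by URM1 and attached by CTU1 with CTU2. MOCS3 was at 25.3 RPKM in Suff, 26.9 in Arg-, 31.4 in Leu- and 83.8 in Met- medium without CHX. It rose 3.31-fold in Met- medium (2.57 to 4.27), while the intervals of the other 2 ratios included 1. With CHX, MOCS3 was not listed in Suff, was at 17.1 and 22.8 RPKM in Arg- and Leu- medium, and was at 110.4 RPKM in Met- medium. The last value was 6.09-fold above the 18.1 RPKM needed for listing in Suff. Listing in Met- medium itself needed 86.2 RPKM, so most of this bound was set by the depth of the 2 libraries. It is not a second measure of the rise without CHX. CTU1 was at 30.1, 39.1, 37.01 and 59.4 RPKM and CTU2 at 38.9, 30.0, 30.4 and 61.0 RPKM in Suff, Arg-, Leu- and Met- medium without CHX, with Met- the highest for both and no ratio past 2-fold. With CHX, CTU1 was at 29.6 RPKM in Suff, 40.2 in Leu- and 525 in Met- medium, a 17.8-fold rise in the last (13.8 to 23.1), which was the largest ratio of any member. It was not listed in Arg- medium, where the Suff level lay 2.42-fold above the level needed. CTU2 with CHX was at 46.4, 25.8, 35.8 and 252 RPKM and rose 5.42-fold in Met- medium (4.48 to 6.55). Listing in the Met- CHX library needed 113.9 RPKM for CTU1 and 67.6 RPKM for CTU2. Both lay above the Suff level, so a Met- ratio near 1 could not have been seen for CTU1 or CTU2. URM1, listed only with CHX, was at 331 RPKM in Suff, 287 in Arg- and 319.9 in Leu- medium, and both intervals included a ratio of 1. ALKBH8, the methyltransferase that acts on the uridine after Elongator, was at 17.0, 18.6, 18.7 and 29.1 RPKM without CHX. Of this pathway 1 of 9 measured genes rose in Arg-, 1 of 9 in Leu- and 2 of 9 in Met- medium without CHX, beside 8.23%, 6.85% and 20.2% of all genes, and 0 fell.

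Among the other enzymes of the wobble base, ADAT3 showed the largest rise without CHX. ADAT2 and ADAT3 together deaminate the wobble adenosine to inosine, with ADAT2 as the catalytic subunit. The first 90 coding bases of both are shown because the partners differed in response, with in-frame methionine, leucine and arginine codons in capitals (coding sequence of GENCODE release 44 on GRCh38; ADAT2 on the minus strand of chromosome 6, gene span 143422832 to 143450695; ADAT3 on the plus strand of chromosome 19, gene span 1905399 to 1913447).
ADAT2: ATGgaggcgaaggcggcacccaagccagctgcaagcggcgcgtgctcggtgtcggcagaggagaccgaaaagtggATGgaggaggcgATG
ADAT3: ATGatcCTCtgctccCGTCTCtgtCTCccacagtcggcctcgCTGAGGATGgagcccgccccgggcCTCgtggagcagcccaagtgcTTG
In these 30 codons ADAT2 has 3 methionine, 0 leucine and 0 arginine codons, and ADAT3 has 2, 6 and 2.

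ADAT3 was at 11.8 RPKM in Suff, 7.31 in Arg-, 10.3 in Leu- and 69.5 in Met- medium without CHX, from 41, 13, 17 and 100 reads. It rose 5.88-fold in Met- medium (4.05 to 8.68), and its level there was 6.76-fold (4.02 to 12.1) that in Leu- medium. Over the same libraries ADAT2 was at 35.9, 34.5, 36.0 and 45.3 RPKM, and the intervals of all 3 ratios to Suff included 1. ADAT2 therefore had 3.04, 4.72 and 3.5 times the footprint density of ADAT3 in Suff, Arg- and Leu- medium and 0.652 times in Met- medium. ADAT3 was not listed in any CHX library, so this difference has no second series, and ADAT2 was listed with CHX only in Arg- and Leu- medium, at 63.3 and 88.9 RPKM. These ADAT2 levels were counted on a shorter coding sequence than the one listed without CHX.

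QTRT1 and QTRT2 form the enzyme that exchanges the wobble guanosine for the queuosine base, with QTRT1 as the catalytic subunit. QTRT2 was at 49.6, 59.5, 44.8 and 133 RPKM in Suff, Arg-, Leu- and Met- medium without CHX and rose 2.68-fold in Met- medium (2.20 to 3.26). QTRT1 was at 61.8, 49.7, 45.2 and 71.0 RPKM, and no ratio passed 2-fold. With CHX, QTRT1 was at 37.6, 78.7, 61.9 and 182 RPKM, from 65 reads in Suff and 66 in Met- medium, and rose 2.09-fold in Arg- (1.59 to 2.79) and 4.83-fold in Met- medium (3.38 to 6.91). Listing QTRT1 in Met- medium needed 176.2 RPKM, so no ratio much below this one could have been seen there. The QTRT1 levels with CHX were counted on a shorter coding sequence than the one listed without CHX. QTRT2 with CHX was listed at 55.2 RPKM in Arg- and 22.4 in Leu- medium and was not listed in Suff, with the Arg- value at least 2.75-fold above the level needed there.

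GTPBP3 and MTO1 together modify wobble uridines of mitochondrial tRNAs. MTO1 was at 12.02 RPKM in Suff, 23.2 in Arg-, 23.4 in Leu- and 30.0 in Met- medium without CHX. Its ratios were 1.93 (1.40 to 2.65), 1.95 (1.41 to 2.69) and 2.5 (1.83 to 3.42), of which the last passed 2-fold, though not once the shift of all genes was subtracted (log2 ratio 0.94). Its partner GTPBP3 was at 137, 107, 95.4 and 188 RPKM, below Suff in Arg- and Leu- medium and above it in Met- medium. With CHX, GTPBP3 was at 214 RPKM in Suff, 47.7 in Arg-, 141 in Leu- and 606 in Met- medium, a fall to 0.224 of Suff (0.197 to 0.254) in Arg- and a 2.84-fold rise (2.53 to 3.18) in Met- medium. MTO1 was listed with CHX only in Arg- and Leu- medium, at 15.96 and 16.55 RPKM. FTSJ1, which methylates ribose in the anticodon loop, was at 76.3, 60.8, 41.2 and 64.4 RPKM without CHX and passed no threshold. In this group 0 of 6 measured genes passed 2-fold in Arg- and 0 of 7 in Leu- medium without CHX. Of all genes, 8.23% rose and 5.95% fell in Arg- medium, and 6.85% rose and 2.06% fell in Leu- medium. In Met- medium without CHX 3 of 7 rose, beside 20.2% of all genes.

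The base that follows the anticodon is modified by 11 of the members, and 3 of them, TRMT5, LCMT2 and ADAT1, rose in Met- medium without CHX. TRMT5 methylates guanosine at this position, and it was at 22.3, 36.1, 41.5 and 77.3 RPKM in Suff, Arg-, Leu- and Met- medium, the last a 3.47-fold rise (2.69 to 4.48). LCMT2, a methyltransferase of the wybutosine pathway of phenylalanine tRNA, was at 9.74, 21.1, 11.99 and 32.4 RPKM. It rose 2.17-fold in Arg- (1.52 to 3.09) and 3.33-fold in Met- medium (2.38 to 4.68), with a Leu- interval that included 1. The other 2 wybutosine genes did not pass 2-fold against Suff in any starvation without CHX: TYW1 was at 7.82, 4.80, 6.99 and 15.7 RPKM, below the mean of 10 RPKM that a ratio needed in Arg- and Leu- medium, and TYW3 was at 35.9, 23.1, 40.3 and 43.3 RPKM. ADAT1, which deaminates the adenosine of alanine tRNA, was at 13.3, 23.0, 23.9 and 53.9 RPKM and rose 4.06-fold in Met- medium (2.94 to 5.63). It was not listed in any CHX library. TRMT5 with CHX was at 33.98 RPKM in Arg- and 24.73 in Leu- medium, and LCMT2 at 12.61 and 5.664 RPKM. Neither TRMT5 nor LCMT2 was listed with CHX in Suff or Met- medium.

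CDKAL1, which adds a methylthio group, was at 13 RPKM in Suff, 30.3 in Arg-, 20.7 in Leu- and 26.9 in Met- medium without CHX, and it rose 2.33-fold in Arg- medium (1.68 to 3.24). Its Met- ratio was 2.07 (1.45 to 2.96), just under the threshold once 1 RPKM was added to both values. Its mitochondrial relative CDK5RAP1 was at 27.7, 40.6, 52.5 and 50.6 RPKM and TRIT1, the isopentenyltransferase that precedes it, at 18.4, 18.1, 22.8 and 21.9 RPKM, with no ratio past 2-fold. With CHX all 3 of these were listed only in Arg- and Leu- medium. CDK5RAP1 was then at least 2.41-fold and 2.23-fold above the level needed for listing in Suff, and CDKAL1 at least 2.16-fold above it in Arg- medium. In the complex that makes threonylcarbamoyl adenosine, the catalytic subunit OSGEP was at 78.7, 107, 112 and 76.9 RPKM, TP53RK at 64.0, 53.8, 37.7 and 86.7 RPKM and TPRKB at 63.7, 36.6, 64.2 and 40.5 RPKM without CHX. The 3 subunits did not follow one order: Met- was the highest library for TP53RK and the lowest for OSGEP, and Arg- was the lowest for TPRKB. With CHX, OSGEP was at 98.7, 108 and 149 RPKM and TPRKB at 117, 66.2 and 92.5 RPKM in Suff, Arg- and Leu- medium, and neither was listed in Met- medium. TP53RK was at 87.5, 38.1, 57.5 and 186 RPKM with CHX, a fall to 0.436 of Suff in Arg- (0.347 to 0.547) and a 2.13-fold rise in Met- medium (1.60 to 2.80). Listing TP53RK in Met- medium needed 156.7 RPKM with CHX, above its Suff level, so a Met- ratio near 1 could not have been seen. Of the position as a whole, 2 of 10 measured genes rose in Arg-, 0 of 10 in Leu- and 3 of 11 in Met- medium without CHX, beside 8.23%, 6.85% and 20.2% of all genes, and 0 fell.

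The tRNA body is methylated by 12 of the members, and in this group TRMT112 fell and TRMT10A rose without CHX. TRMT112 is a small protein of 125 codons that several methyltransferases need as a partner, among them TRMT11 and ALKBH8. METTL1 and WDR4 form the enzyme that methylates guanosine in the variable loop, METTL1 being catalytic. Their first 90 coding bases are given, again with methionine, leucine and arginine codons in capitals, because TRMT112 was the member that fell past 2-fold in both series and because METTL1 and WDR4 parted in Met- medium (GENCODE release 44, GRCh38, all on the minus strand; TRMT112 on chromosome 11, 64316460 to 64317559; METTL1 on chromosome 12, 57768471 to 57772119; WDR4 on chromosome 21, 42843094 to 42879568).
TRMT112: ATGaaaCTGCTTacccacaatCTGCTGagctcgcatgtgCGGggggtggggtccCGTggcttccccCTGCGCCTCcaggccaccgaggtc
METTL1: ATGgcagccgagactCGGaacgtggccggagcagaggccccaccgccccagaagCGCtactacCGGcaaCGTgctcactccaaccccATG
WDR4: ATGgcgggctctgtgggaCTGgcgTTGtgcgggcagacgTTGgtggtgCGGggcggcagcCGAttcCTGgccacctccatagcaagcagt
The 30 codons shown hold 1, 2 and 1 methionine, 6, 0 and 4 leucine and 3, 4 and 2 arginine codons in TRMT112, METTL1 and WDR4.

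TRMT112 was at 1332 RPKM in Suff, 577 in Arg-, 716 in Leu- and 910 in Met- medium without CHX, from 1581, 351, 405 and 448 reads. With CHX it was at 1630 RPKM in Suff, 693 in Arg-, 746 in Leu- and 1154 in Met- medium, and Suff was the highest library in both series. Its ratios to Suff without CHX were 0.433 (0.384 to 0.486), 0.537 (0.481 to 0.6) and 0.683 (0.614 to 0.759), and with CHX 0.425 (0.394 to 0.458), 0.458 (0.428 to 0.490) and 0.708 (0.614 to 0.813). It fell past 2-fold in Arg- medium in both series and in Leu- medium with CHX. Duplicate reads were removed in the libraries without CHX per the records, and TRMT112 was densely covered there, with 4.22 reads per coding base in Suff and 0.936 to 1.19 in the starved libraries. The CHX libraries, for which no such removal is recorded, gave ratios of similar size. TRMT11, its catalytic partner in methylating guanosine of the tRNA body, was at 21.3, 21.4, 24.5 and 34.2 RPKM without CHX, and TRMT112 had 62.6 times its density in Suff and 26.6 to 29.2 times in the starved libraries. TRMT11 was listed with CHX only in Arg- and Leu- medium, at 26.2 and 31.7 RPKM, on a shorter coding sequence than without CHX.

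WDR4 was at 87.9, 55.6, 52.8 and 146 RPKM and METTL1 at 62.9, 39.6, 34.6 and 45.3 RPKM in Suff, Arg-, Leu- and Met- medium without CHX. Both lay below Suff in Arg- and Leu- medium, at 0.633 and 0.601 of Suff for WDR4 and at 0.63 and 0.55 of Suff for METTL1, with all 4 intervals below 1. In Met- medium WDR4 was 1.66 times Suff (1.40 to 1.97) and METTL1 0.720 times (0.512 to 0.996). The density of WDR4 was thus 1.40, 1.40 and 1.53 times that of METTL1 in Suff, Arg- and Leu- medium and 3.23 times in Met- medium. With CHX, WDR4 was at 80.3, 36.7, 40.0 and 341 RPKM, which was a fall to 0.457 of Suff in Arg- (0.380 to 0.548) and a 4.25-fold rise in Met- medium (3.54 to 5.10). Listing WDR4 in Met- medium needed 96.2 RPKM with CHX, above its Suff level, so a Met- ratio below 1 could not have been seen. METTL1 with CHX was at 79.7, 44.1 and 41.1 RPKM in Suff, Arg- and Leu- medium and was not listed in Met- medium, where the level needed, 144 RPKM, lay above its Suff level. The coding sequence of CYP27B1 overlaps the METTL1 gene span on the same strand in the annotation, so the counts of METTL1 carry that uncertainty.

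TRMT10A, which methylates guanosine near the start of the tRNA, was at 20.3, 31.7, 34.7 and 58.0 RPKM and rose 2.86-fold in Met- medium (2.03 to 4.04). TRMT10C, a subunit of mitochondrial RNase P, was at 60.2, 71.7, 64.5 and 89.95 RPKM, and TRMT1, which makes dimethylguanosine, was at 41.7, 60.2, 47.2 and 38.0 RPKM. TRMT6 and its catalytic partner TRMT61A methylate adenosine in the T loop. TRMT6 was at 38.0, 29.1, 41.6 and 42.1 RPKM and TRMT61A at 53.8, 76.4, 43 and 66.2 RPKM without CHX, so the density of TRMT61A was 2.62 times that of TRMT6 in Arg- medium and 1.03 to 1.57 times in the other media. With CHX, TRMT6 was at 28.55, 38.8 and 35.1 RPKM in Suff, Arg- and Leu- medium and was not listed in Met- medium. TRMT61A was at 88.75, 48.3, 86.4 and 225 RPKM. Its density there was 3.11, 1.25 and 2.46 times that of TRMT6 in Suff, Arg- and Leu- medium. The Arg- ratios to Suff with CHX were 0.545 for TRMT61A and 1.36 for TRMT6, the reverse of the order without CHX. TRMT10A with CHX was at 43.96 RPKM in Arg- and 57.0 in Leu- medium, and was not listed in Suff or Met- medium. The cytosine methyltransferases NSUN2 and TRDMT1 and the uridine methyltransferase TRMT2A lay between 0.644 and 1.55 times Suff in the 3 starvations without CHX. Of the 12 genes 1 fell and 0 rose in Arg- medium without CHX, beside 5.95% and 8.23% of all genes. In Leu- medium 0 passed 2-fold, while 6.85% of all genes rose and 2.06% fell. In Met- medium 1 rose, beside 20.2% of all genes.

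Among the 3 pseudouridine synthases, PUS3 was at 18.7, 20.2, 25.4 and 63.7 RPKM in Suff, Arg-, Leu- and Met- medium without CHX and rose 3.40-fold in Met- medium (2.56 to 4.55). PUS1 was at 82.1, 57.5, 60.4 and 156 RPKM, a ratio of 1.90 in Met- medium (1.61 to 2.24) that did not pass the threshold, and its Arg- and Leu- intervals lay below 1. PUS7 was at 37.2, 28.1, 28.9 and 20.5 RPKM, so it was lowest in the library where the other two were highest. With CHX, PUS1 was at 91.5, 56.6, 55.0 and 489 RPKM and rose 5.34-fold in Met- medium (4.56 to 6.26). Listing PUS1 in Met- medium needed 92.8 RPKM with CHX, just above its Suff level, so a Met- ratio below 1 could not have been seen. PUS3 was at 20.6, 33.8 and 28.0 RPKM and PUS7 at 34.5, 41.6 and 32.7 RPKM in Suff, Arg- and Leu- medium with CHX, and neither was listed in Met- medium.

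**Figure D3:**
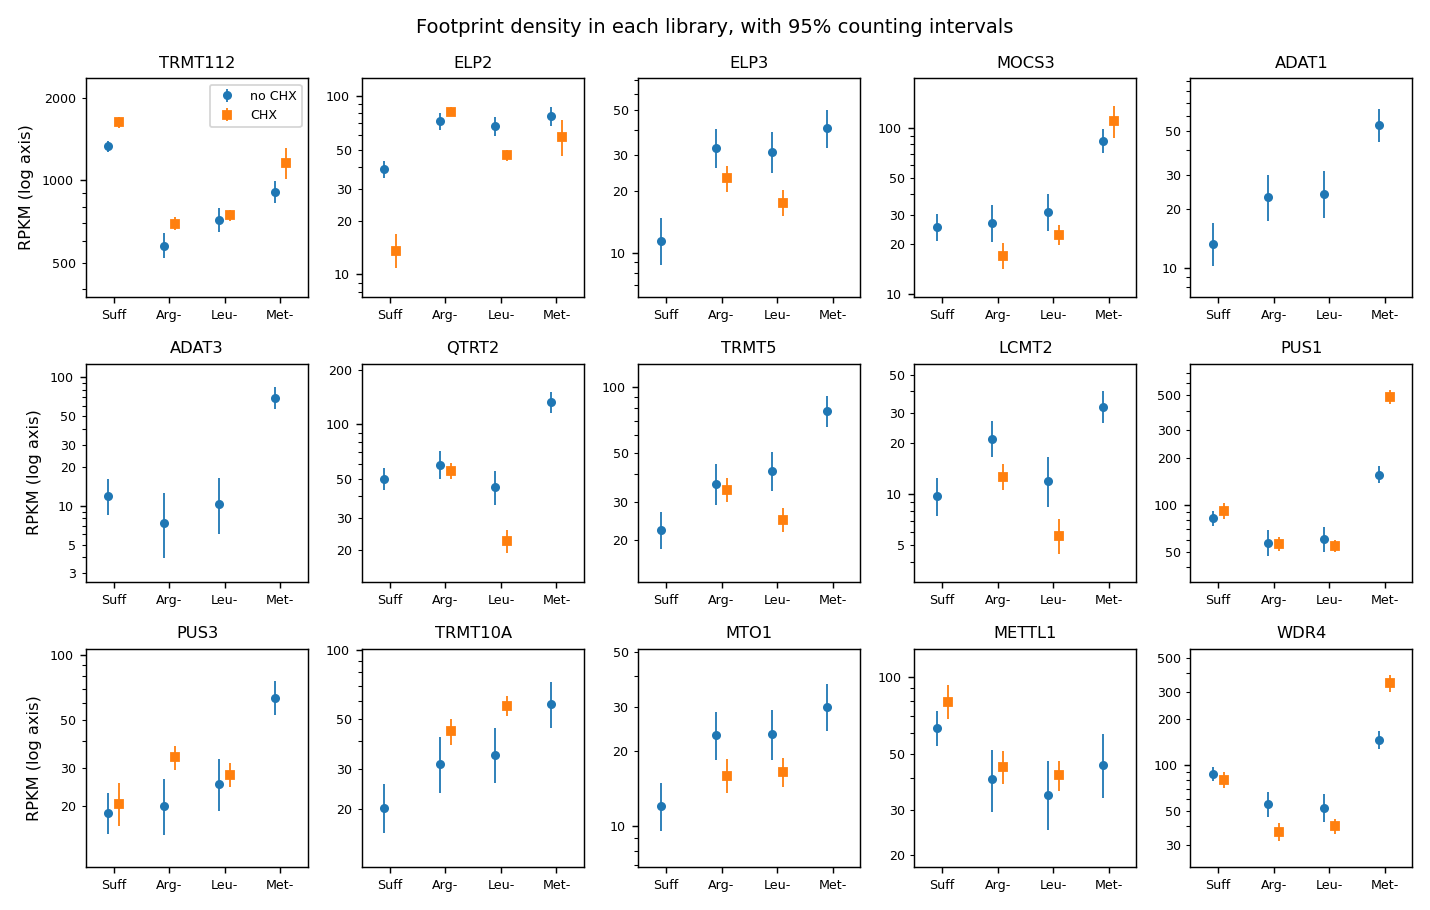
RPKM on a log axis in each of the 4 media for 15 members, as circles without CHX and squares with CHX, and bars give 95% counting intervals; a missing symbol means that the mRNA was not listed. TRMT112 is highest in Suff in both series, ELP3 is lowest in Suff, and ADAT3, MOCS3, QTRT2 and PUS3 without CHX stand apart in Met- medium only.

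**Figure D4:**
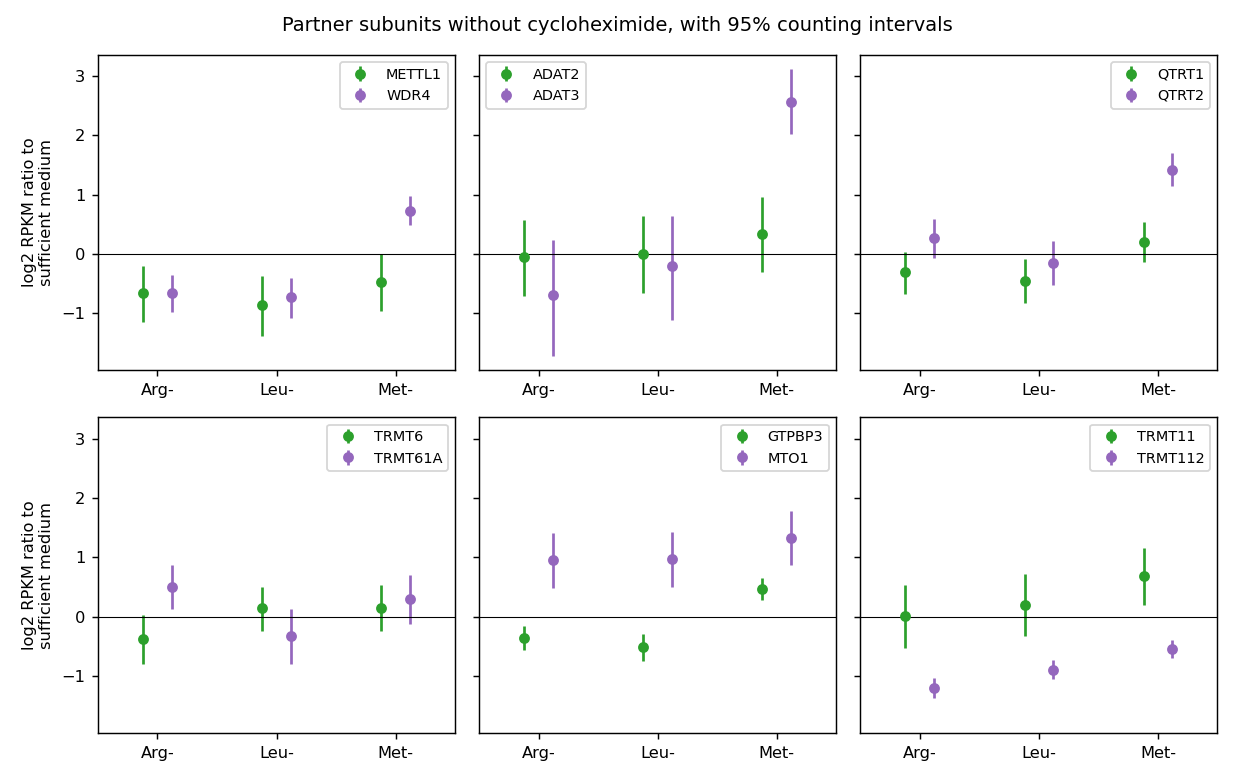
Log2 RPKM ratios to sufficient medium without CHX for the 2 subunits of 6 enzymes, with 95% counting intervals. The intervals of METTL1 and WDR4, of ADAT2 and ADAT3, and of QTRT1 and QTRT2 are apart in Met- medium. Those of GTPBP3 and MTO1 are apart in all 3 media, and those of TRMT6 and TRMT61A in Arg- medium. With CHX, which is not drawn, the order of TRMT6 and TRMT61A in Arg- medium was reversed. TRMT112 lies below TRMT11 in all 3 media.

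Met- and Leu- media were also compared with each other without CHX, since methionine and leucine starvation were the contrast the study drew. Of 42 measured members, 11 rose in Met- relative to Leu- medium and 0 fell, beside 10.1% and 4.86% of 8102 genes. The members' median log2 ratio was 0.54 and that of all genes 0.15. With that shift subtracted 8 members rose and 0 fell, and all genes split into 6.91% higher and 7.13% lower. The 11 were ADAT3, QTRT2, WDR4, MOCS3, LCMT2, PUS1, PUS3, TP53RK, ADAT1, TRMT2A and TYW1. WDR4 was 2.77-fold higher (2.18 to 3.54), PUS1 2.59-fold (2.07 to 3.25), TP53RK 2.30-fold (1.58 to 3.40) and QTRT2 2.97-fold (2.30 to 3.85), although WDR4, PUS1 and TP53RK had not passed 2-fold against Suff. ELP3, which rose in both media, differed by a ratio of 1.3 (0.944 to 1.79) between them, and this interval included 1.

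In the CHX series fewer members could be compared. In Arg- medium 5 of 24 rose (ELP2, TRMT10C, TRMT1, NSUN2 and QTRT1) and 4 fell (GTPBP3, TRMT112, TP53RK and WDR4), beside 16.6% and 19.7% of 5074 genes. The median of the members was -0.53 and that of all genes -0.23, and with the latter subtracted 5 rose and 2, GTPBP3 and TRMT112, fell while the split of all genes became 21.5% and 12.4%. TRMT10C rose 2.95-fold (2.40 to 3.65) and NSUN2 2.30-fold (1.96 to 2.71) in Arg- medium with CHX, while without CHX their ratios were 1.19 and 0.700. In Leu- medium ELP2 rose and TRMT112 fell, 1 and 1 of 25, beside 12.1% and 7.28% of 5208 genes. In Met- medium 11 of 14 rose and 0 fell, beside 46.7% and 9.79% of the 1890 genes listed in both libraries. Because the Met- CHX library listed only mRNAs with a high level in it, these 11 had to be high there to be counted. With the all-gene median of 0.89 subtracted 7 rose, without GTPBP3, TP53RK, TRMT61A and TRMT2A, and 1, TRMT112, fell, and all genes split into 20.8% and 23.0%. Of the 11 members listed with CHX in Suff but not in Met- medium, 0 had a Suff level above the level that listing in Met- medium required, so no direction can be given for them.

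The 2 series share no library, and the members' log2 ratios were set side by side. Across the members measured in both, Spearman's rho was 0.41 in Arg- (n = 23), 0.77 in Leu- (n = 24) and 0.66 in Met- medium (n = 14), and Pearson's r was 0.59, 0.78 and 0.78. The sign was the same for 18, 19 and 11 of these members. TRMT1, for example, was at 0.912 of Suff without CHX and 4.45 times Suff with CHX in Met- medium. The 14 in Met- medium were only those high enough to be listed in its CHX library, so low ratios with CHX are missing there. Genes are not independent replicates, and both values of a gene counted on 1 transcript share its length and base composition. ELP2, ELP5, PUS7, QTRT1, GTPBP3, FTSJ1 and TRMT2A were counted on different transcripts in the 2 series. None of the 10 members that rose in Met- medium without CHX had a Met- ratio with CHX. With CHX, 15 members, among them ELP3, MOCS3, TRMT5, LCMT2 and QTRT2, were listed in Arg- and Leu- medium but not in Suff, and 3, ADAT1, ADAT3 and TRDMT1, were listed in no library, while PUS3 was missing from Met- medium only.

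S-adenosylmethionine is bound by 18 of the members, 14 methyltransferases and 4 radical enzymes (ELP3, TYW1, CDK5RAP1 and CDKAL1). Of these, 4 of 18 rose in Met- medium without CHX (ELP3, TRMT5, LCMT2 and TRMT10A), and 6 of the 24 other members measured did, beside 20.2% of all genes. Their median log2 ratios were 0.64 and 0.45. In Arg- medium 3 of 17 and 0 of 23 rose, beside 8.23% of all genes, with medians of 0.25 and -0.06, and in Leu- medium the medians were 0.16 and 0.05. Of 51 other tRNA modification genes, 49 were listed in at least 1 library, and in Met- medium without CHX 10 of 46 measured rose and 2 fell, beside 20.2% and 5.34% of all genes, with a median of 0.56. The 10 included TRMT1L, a relative of TRMT1, which went from 10.7 to 45.0 RPKM (4.20-fold, 3.13 to 5.67). They also included NAT10, the RNA acetyltransferase, at 18.9 RPKM in Suff and 40.9 in Met- medium (2.16-fold, 1.74 to 2.68). In Arg- medium 3 of 45 rose and 3 fell, beside 8.23% and 5.95% of all genes, and in Leu- medium 2 of 46 rose and 2 fell, beside 6.85% and 2.06%, with TRMT1L among those that rose in both, 2.69-fold (1.97 to 3.67) and 2.35-fold (1.70 to 3.26).

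The coding sequences of the members were close to those of all genes in length and in the codons of the 3 amino acids. The median member had 460 codons, of which 2.17% coded for methionine, 10.1% for leucine and 6.20% for arginine, against 478 codons and 2.12%, 9.76% and 5.64% for 11676 genes. Without CHX, Spearman's rho of the members' ratios with length was 0.45, 0.35 and 0.37 in Arg-, Leu- and Met- medium (0.36, 0.31 and 0.44 across all genes), and with the share of arginine, leucine and methionine codons in the matching medium 0.16, -0.16 and -0.13 (n = 40, 41 and 42 members). Across all genes rho with these 3 codon shares was 0.03, -0.0 and -0.08. With the share of codons that end in G or C, rho was -0.27, -0.47 and -0.06 in Arg-, Leu- and Met- medium (-0.11, -0.27 and -0.13 across all genes). These properties were not separated from one another. The sequence TGATGNAA, the core of the amino acid response element that the transcription factor ATF4 binds, was searched on both strands from 250 bases before to 50 bases after the start of transcription (RefSeq, GRCh38.p14). It was found in the window of 1 of 34 members with an entry, CDKAL1, and in 4.46% of the windows of 27305 genes. A match of letters does not show a site in use, and its absence from this window says nothing of the factor.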

How the data were processed

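Ribosome-protected fragments of HEK293T cells were profiled in 4 media with and without CHX, 1 library each. Per the methods and labels, the authors trimmed adaptors and low-quality bases, kept fragments of footprint length, aligned them to the human transcriptome (GRCh38) with Bowtie without mismatches and kept unique alignments. The annotation release is not given in the sources used here, and unique mapping leaves out reads shared by near-identical genes. The authors deposited RPKM values per Ensembl transcript. Removal of duplicate reads is recorded for the series without CHX only.

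Transcripts were matched to GENCODE release 44, which placed 96.7% to 97.1% of them, and the highest transcript of a gene was used in each library. That transcript differed between the series for ELP2, ELP5, ALKBH8, ADAT2, PUS7, QTRT1, QTRT2, GTPBP3, MTO1, FTSJ1, TRMT11 and TRMT2A. Their levels are therefore not like for like between the series. RPKM values were whole multiples of 1 read (within 0.01 of a read) for 97.1% to 97.4% of mRNAs, and these reads gave the exact 95% intervals. Ratios used a pseudocount of 1 RPKM and a minimum mean of 10 RPKM, and a 2-fold change was the threshold. The ratios were computed on the whole table in 7 comparisons, and the calculation was tested on simulated data with known changes. Values in every library are given for members past 2-fold without CHX whose interval excluded 1 (the 12 with the largest change), for members past 2-fold in the same direction in both series, and for the subunits of 9 complexes. Values of TYW1, TYW3, ALKBH8, FTSJ1, CDKAL1, CDK5RAP1, TRIT1, PUS7, TRMT1, TRMT10C and URM1 were added beyond that rule. The members and lists were chosen with earlier results of these data known. The coding sequence of another gene lies on the opposite strand within the spans of ELP4, ELP5, TYW1, PUS3, QTRT2, MTO1, TRMT2A and METTL1, and the sources do not say whether counting used strand. Alternatives were a pseudocount of 0.1 RPKM, no minimum, a minimum of 50 RPKM, unlisted mRNAs counted as 0, summed transcripts, 1 transcript per gene and series, and centring on the median of all genes. Tables were handled in pandas 2.3.3 under Python 3.11.15, intervals came from scipy 1.17.1, and figures were drawn with matplotlib 3.10.9.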

Additional observations from a re-analysis of the deposited data

Results flagged for a closer look

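Among the members measured in both media with CHX, 3 fell past 2-fold in Arg- medium and rose past 2-fold in Met- medium, each against the same Suff library. GTPBP3, the mitochondrial wobble uridine enzyme, had log2 ratios of -2.14 and 1.5, a difference of 3.64. WDR4, the partner of METTL1, had -1.11 and 2.07, a difference of 3.18. TP53RK, of the threonylcarbamoyl adenosine complex, had -1.18 and 1.08, a difference of 2.26. Listing in the Met- library needed 96.2 RPKM for WDR4 and 156.7 RPKM for TP53RK, above their Suff levels of 80.3 and 87.5 RPKM. A Met- ratio below 1 could not have been seen for either, so their Met- direction was fixed by the listing. For GTPBP3 listing needed 80.6 RPKM, below its Suff level of 213.6 RPKM. The differences were not tested, since each medium had 1 library. The medians of all genes were -0.23 in Arg- and 0.89 in Met- medium with CHX. With these subtracted none of the 3 passed 2-fold in both media: the ratios became -1.91 and 0.61 for GTPBP3, -0.88 and 1.18 for WDR4 and -0.95 and 0.19 for TP53RK.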

How the results depend on the processing

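Of 147 alternative values of the counts and medians, 127 stayed within 1.5 times the count or within the 95% binomial interval of the median over members, and 20 moved. Of 174 alternative values of single members, 170 stayed and 4 moved, and 0 changed sign. With a minimum of 50 RPKM, which leaves 13 to 19 members per comparison, 0 members rose in Arg- without CHX (median -0.32), 0 in Leu- without CHX (median -0.44), 2 in Met- without CHX, 3 in Arg- with CHX, 0 in Leu- with CHX (median -0.54) and 5 in Met- against Leu- medium. All genes that rose then numbered 173 of 3152, 148 of 3268 and 382 of 3448 in Arg-, Leu- and Met- medium without CHX, in place of 613, 518 and 1594. Those in Arg- and Leu- medium with CHX numbered 471 of 3098 and 386 of 3195, and those in Met- against Leu- medium 236 of 3607. Centred on the median of all genes, 2 members fell in Leu- and 1 in Met- medium without CHX, beside 3.44% and 10.7% of all genes. With CHX 2 fell in Arg-, 2 in Leu- and 1 in Met- medium, where 7 rose. All genes that fell with CHX then made up 12.4%, 7.7% and 23.0%, and 20.8% rose in Met- medium. Unlisted mRNAs counted as 0 gave 15 members that rose in Arg- and 11 in Leu- with CHX, beside 29.7% and 26.3% of all genes. The same setting gave 11 members that fell in Met- with CHX (median 0.46). All genes that fell in the last comparison then numbered 2973 in place of 185, since every mRNA missed by the shallow Met- library counts as a fall. A pseudocount of 0.1 RPKM gave 2 members that fell in Leu- with CHX, beside 7.57% of all genes. With centring, 24 of 27 named ratios stayed past 2-fold, and the exceptions were MTO1 in Met- medium (0.94), ADAT1 in Met- against Leu- medium (0.99) and WDR4 in Arg- medium with CHX (-0.88). Each medium has 1 library in a series, so no replicate was left out, and media were not paired across the 2 series, which differ in CHX, recorded duplicate removal and the lowest read count listed. The Met- CHX library had 538222 reads on coding sequences and, with a lowest count of 64 reads, listed 15 of 43 members.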
